A study of Mus musculus with 6 samples.

Results

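The nuclear factor I (NFI) family has 4 genes in the mouse, Nfia, Nfib, Nfic and Nfix, and all 4 were found by symbol among the 22477 genes counted in this series. The libraries come from 4 tumors of the lung and 2 pieces of normal lung, called tumor 3 to 6 and normal 1 and 2 after the numbers in their titles, each from a different mouse. All 6 mice carried the RPM alleles, in which Cre removes floxed Rb1 and Trp53 and turns on the stable Myc mutant MycT58A, and the labels list the same virus, Ad5CGRP-Cre, for tumors and normal lung alike. That adenovirus drives Cre from a CGRP promoter aimed at neuroendocrine cells of the airway, and the protocol gives induction at 8 weeks of age. Several drug arms are described for the study but no arm is given for these mice, so tumor against normal lung was the comparison made.

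NFI proteins bind DNA as dimers at a palindrome built on TTGGC, through an N-terminal domain that is nearly the same in all members, while the C-terminal part that acts on transcription differs. Nfib is needed for the lung to mature before birth, and its amplification or high expression is a known driver of progression and metastasis in mouse small cell lung cancer lacking Rb1 and Trp53. Nfia is best known from gliogenesis, Nfix from muscle and neural stem cells, and Nfic from the growth of tooth roots.

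The most alike 120-base stretch of the 4 coding sequences is shown because it encodes the start of the shared DNA-binding domain and shows how far reads of the members can be told apart. It lies within exon 2 of each transcript used (GENCODE M21, GRCm38, a build other than the mm9 named by the submitters), at chr4:97783082-97783201 on the plus strand for Nfia and, on the minus strand, at chr4:82498650-82498769 for Nfib, chr10:81420679-81420798 for Nfic and chr8:84772196-84772315 for Nfix. Capitals mark the bases that are the same in all 4 members, 88 of the 120 (73.3%).
Nfia: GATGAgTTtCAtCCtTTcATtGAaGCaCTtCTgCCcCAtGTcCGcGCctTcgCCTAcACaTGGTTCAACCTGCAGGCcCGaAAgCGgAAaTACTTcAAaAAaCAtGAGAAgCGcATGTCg
Nfib: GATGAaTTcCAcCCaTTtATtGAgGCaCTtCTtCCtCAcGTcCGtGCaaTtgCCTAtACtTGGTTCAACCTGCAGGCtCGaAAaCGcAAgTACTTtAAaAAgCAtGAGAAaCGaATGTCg
Nfic: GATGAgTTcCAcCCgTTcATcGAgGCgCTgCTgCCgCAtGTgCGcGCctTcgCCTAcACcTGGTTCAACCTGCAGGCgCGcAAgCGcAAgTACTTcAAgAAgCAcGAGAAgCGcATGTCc
Nfix: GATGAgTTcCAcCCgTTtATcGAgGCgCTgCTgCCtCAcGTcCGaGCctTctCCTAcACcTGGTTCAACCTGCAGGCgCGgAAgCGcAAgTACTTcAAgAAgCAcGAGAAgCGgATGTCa

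Differences are spread through the stretch, so that no long run is common to the members. Across the whole coding sequence, pairs of members were 63.2% (Nfib and Nfic) to 70.6% (Nfia and Nfix) identical over the aligned bases. The longest identical run in any pair of coding transcripts, UTRs included, was 32 bases, between Nfic and Nfix, and no pair had a 50-base run in common. The length of the reads is not given in the sources used here. In the same annotation Nfia overlaps E130114P18Rik, whose row held 0 to 146 counts per library against at least 1537 for Nfia, and Nfix overlaps Lyl1, with 30 to 661 counts against at least 1045 for Nfix. Nfic overlaps Mir1191b, at 4 to 16 counts.

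Total counts ran from 54735438 in tumor 4 to 99122494 in normal 1, and each NFI gene had at least 1045 counts in every library. Of 18027 genes tested, 63.9% passed an adjusted p of 0.05 (edgeR quasi-likelihood test with Benjamini-Hochberg adjustment), 31.3% higher and 32.6% lower in tumors, so a call by itself is common here. All 14 neuroendocrine markers rose, with a summed level of 1419 to 2080 CPM in tumors and 27.0 to 39.6 in normal lung, and no cell type marker was at 0 in every tumor. Markers of normal lung cells fell, as 10 of 10 did for endothelium, for alveolar type 1 and for alveolar type 2 cells, and 6 of 10 for fibroblasts. Rn45s, Rpph1 and Rmrp, which lack a poly(A) tail, together took 5.46% to 13.9% of counts in tumors and 0.238% and 0.55% in normal lung. The part of such transcripts in the results was not tested beyond leaving out the tailless rows (small RNAs, Rn45s and histones).

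In tumors Nfib was higher, Nfia and Nfic were lower, and Nfix did not pass the test. Of the 4 members 1 was thus called higher and 2 lower, beside 31.3% and 32.6% of all genes tested. The log2 fold changes stood at the 70.3rd percentile of all tested genes for Nfib, the 43.4th for Nfix, the 26.5th for Nfic and the 23.8th for Nfia. No member was therefore at an extreme of these data. Nfib lay in every tumor above both normal libraries, as did 37.4% of tested genes, and Nfia and Nfic lay in every tumor below both, as did 39.8%. In whole tissue, fewer cells of a type and less RNA per cell cannot be told apart.

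Nfib, the member tied to small cell lung cancer, stood at 385 and 342 CPM (counts scaled to TMM-adjusted library size) in normal 1 and 2. It stood at 585, 510, 817 and 1040 CPM in tumors 3, 4, 5 and 6. Tumor 6 had about 2.04 times the level of tumor 4, and the groups did not overlap. The mean went from 363 ± 30.0 (SD, n = 2) to 738 ± 240 (n = 4), a log2 fold change of 1.02 ± 0.32 (SE), or 2.03-fold with a 95% interval of 1.19 to 3.48, at adjusted p = 0.0295 (edgeR with Benjamini-Hochberg adjustment). The call was lost without normal 1 (adjusted p = 0.113), normal 2 (0.157) or tumor 5 (0.06), while the log2 fold change stayed between 0.90 and 1.17 over the alternatives tried, with adjusted p from 0.00228 to 0.157. Tumor 6, the highest in Nfib, also had the highest summed level of the 10 fibroblast markers, at 1337 CPM against 492 to 620 in the other tumors and 2435 and 2470 in normal lung, and the lowest of the neuroendocrine markers, at 1419 CPM. The genes of these 2 lists did not all go that way. Col1a1, Col1a2, Col3a1, Dcn, Fn1, Lum and Mfap5 were higher in tumor 6 than in the other tumors. Pdgfra (12.5 CPM) and Tcf21 (0.239 CPM) were lowest there. Of the neuroendocrine genes Chga, Scg2, Scg3, Scg5, Calca, Uchl1 and Ddc were lowest in tumor 6, but Insm1 was highest, at 104 CPM. The part of fibroblasts or neuroendocrine cells in the Nfib level was not tested.

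Nfia, the gliogenic member, was lower in every tumor. Its level was 111 and 91.5 CPM in normal 1 and 2, and 35.0, 30.2, 36.2 and 29.1 CPM in tumors 3 to 6. The 4 tumors were close to each other, the highest being 1.24 times the lowest, and all lay well under normal lung. The mean fell from 101 ± 13.8 to 32.6 ± 3.51 CPM, 3.11-fold, with a log2 fold change of -1.63 ± 0.16 (adjusted p = 0.000262, edgeR).

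Nfic, the member known from tooth roots, was 2.65-fold lower in tumors, a log2 fold change of -1.41 ± 0.30 at adjusted p = 0.00652 (edgeR). Normal 1 and 2 were almost equal, at 78.2 and 77.7 CPM, and tumors 3 to 6 stood at 18.4, 25.5, 32.1 and 41.6 CPM. Tumor 6 was thus highest and tumor 3 lowest, 2.26-fold apart, but none reached normal lung. The means were 78.0 ± 0.399 and 29.4 ± 9.90 CPM.

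Nfix was the member that differed most between tumors. It stood at 92.0 and 84.9 CPM in normal 1 and 2, and at 95.4, 20.5, 105 and 65.2 CPM in tumors 3, 4, 5 and 6. Tumors 3 and 5 were above both normal libraries and tumors 4 and 6 below both, so the groups overlapped. The low value of tumor 4 rested on 1045 counts and had an exact Poisson 95% interval of 19.3 to 21.8 CPM (counting error only), far from the other tumors. The means were 88.5 ± 5.01 and 71.6 ± 38.0 CPM, a log2 fold change of -0.31 ± 0.57 (adjusted p = 0.656, edgeR). The fold had a 95% interval of 0.316 to 2.07, so a change of that size in either direction was not resolved. Without tumor 4 the log2 fold change was 0.0048.

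**Figure D1:**
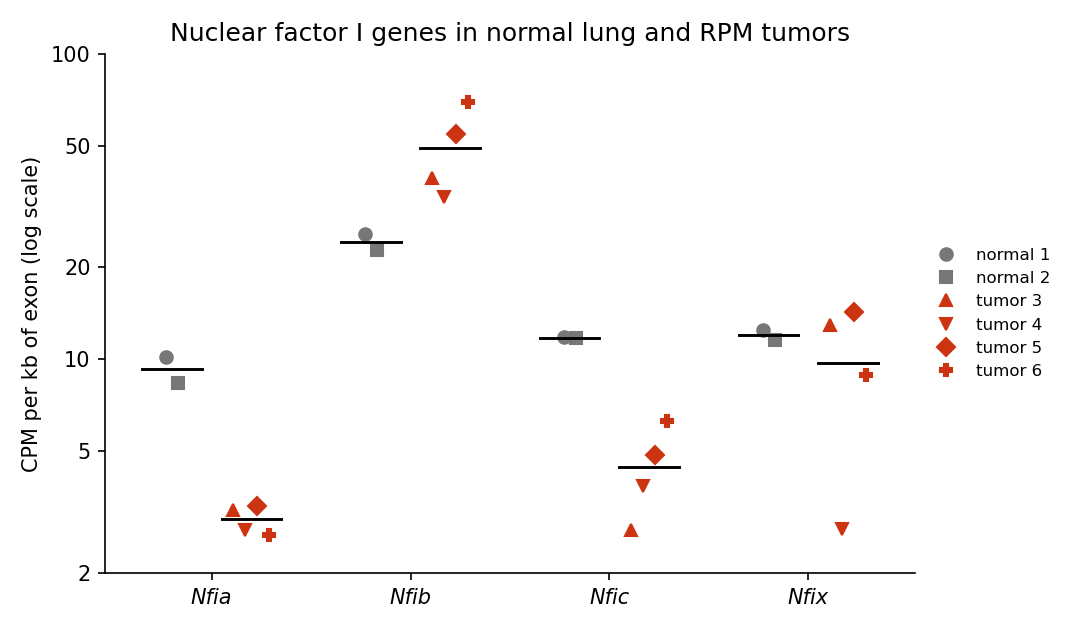
Level of each NFI gene in each library, in CPM per kb of exon on a log axis. Gray points are the 2 normal libraries, red points the 4 tumors, each library with its own symbol, and bars are group means. Every tumor lies above normal lung for Nfib and below it for Nfia and Nfic, while Nfix ranges from 2.79 in tumor 4 to 14.3 in tumor 5.

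Levels of different genes were compared per kb of exon, with the union of all GENCODE exons as length (10891 bases for Nfia, 14957 for Nfib, 6630 for Nfic and 7351 for Nfix). In normal lung the order was Nfib at 24.3 ± 2.00 CPM per kb, Nfix at 12.04 ± 0.682, Nfic at 11.8 ± 0.0601 and Nfia at 9.30 ± 1.26. With this length Nfix and Nfic did not differ beyond their spread there, with Nfix at 12.5 and 11.6 and Nfic at 11.8 and 11.7 in normal 1 and 2. With the longest coding transcript as length they were apart in normal lung, at 20.4% ± 0.318 and 15.8% ± 1.06 of the summed family level. In tumors the order of the means was the same, with Nfib at 49.3 ± 16.1, Nfix at 9.73 ± 5.17, Nfic at 4.44 ± 1.49 and Nfia at 2.99 ± 0.322 CPM per kb. Nfib was the highest member in every library. The order below it changed from tumor to tumor. Nfic, at 3.84 in tumor 4, was above Nfix there (2.79), and in tumor 3 Nfia (3.22) was above Nfic (2.77). Among 17228 tested genes with a length, Nfib stood at the 89.6th and 88.2nd percentile of level per kb in normal 1 and 2 and between the 91.8th and 96.7th in tumors. Nfia went from the 73.2nd and 68.2nd percentile to between the 45.5th and 50.8th.

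Summed over the family per kb of exon, the level changed less than its make-up. The sum was 60.2 and 54.5 CPM per kb in normal 1 and 2, and 58.1, 43.5, 77.1 and 87.4 in tumors 3 to 6. Tumor 4 lay below both normal libraries and tumors 5 and 6 above both. The means were 57.4 ± 4.01 and 66.5 ± 19.6 CPM per kb, a difference within the spread of the tumors (exact permutation test, two-sided, p = 0.667). The sum depends on length. As CPM without length it was 666 and 596 in normal 1 and 2, and 734, 586, 991 and 1176 in tumors 3 to 6. Tumors 3, 5 and 6 were then above both normal libraries and tumor 4 below both.

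Nfib took 42.7% and 41.9% of the sum per kb in normal 1 and 2, and 67.4%, 78.4%, 70.9% and 79.6% in tumors 3, 4, 5 and 6. Its mean share went from 42.3% ± 0.535 to 74.0% ± 5.90, 31.7 percentage points higher, with no overlap between groups. The share of Nfia went from 16.2% ± 1.07 to 4.82% ± 1.45 and that of Nfic from 20.5% ± 1.33 to 6.77% ± 1.70, again without overlap. How often shares within other gene families do not overlap was not counted. Nfix held 20.8% and 21.2% in normal lung and 22.3%, 6.42%, 18.5% and 10.1% in tumors 3 to 6, so that tumor 3 kept the normal share and tumor 4 had lost most of it. With 4 against 2 libraries the exact permutation test cannot go below p = 0.133, which is what the shares of Nfib, Nfia and Nfic each gave (0.178 adjusted over the 4 shares), against p = 0.4 for Nfix. Shares do not depend on library scaling but do depend on length. The share of Nfic changed by -13.8 points per kb and by -8.98 points with raw counts. With the longest coding transcript as length the Nfib share was 50.3% ± 0.521 in normal lung and 79.1% ± 5.59 in tumors, and with raw counts it was 57.6% ± 0.265 and 84.4% ± 4.02.

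**Figure D2:**
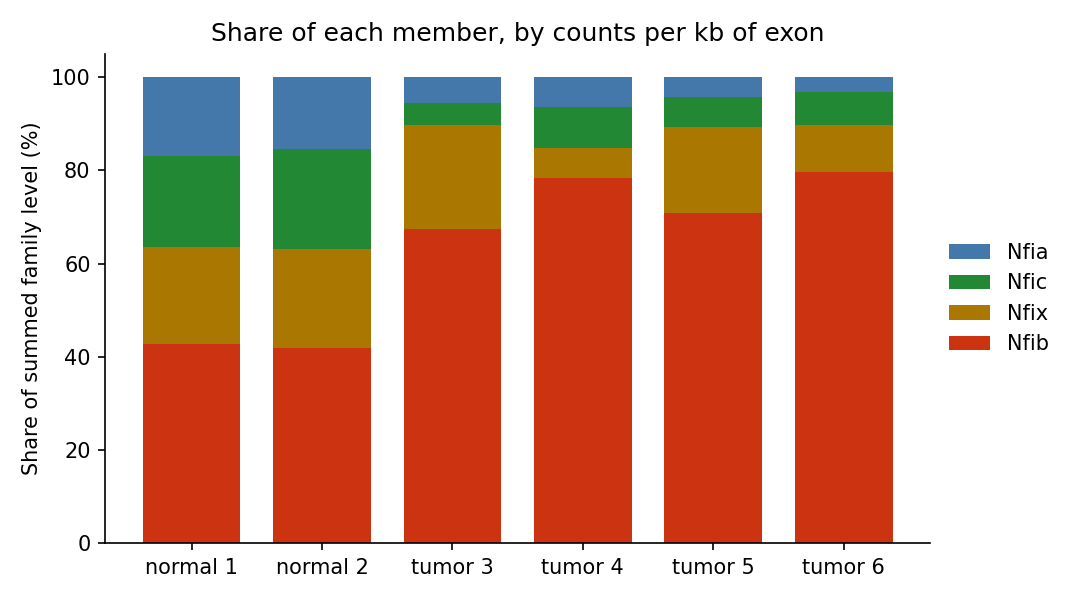
Share of each member in the summed NFI level of each library, in percent, from counts per kb of exon. Each stacked bar is 1 library and adds up to the whole family. The Nfib part grows from 42.7% and 41.9% in normal lung to between 67.4% and 79.6% in tumors, and the Nfix part is smallest in tumor 4.

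Ratios of counts between members within a library need neither scaling nor length. The ratio of Nfib to Nfic counts was 4.91 and 4.40 in normal 1 and 2, and 31.8, 20.0, 25.4 and 25.0 in tumors 3 to 6. Nfib thus gained on Nfic in every tumor, by 2.44 on the log2 scale or 5.42-fold, and the tumors lay within 1.59-fold of each other. Against Nfia, Nfib gained 2.60 on the log2 scale, with Nfia at 0.289 and 0.268 counts per Nfib count in normal lung and at 0.0598, 0.0592, 0.0443 and 0.0280 in tumors 3 to 6. Against Nfix it gained 1.52 on the log2 scale, and here the tumors ranged from 6.13 in tumor 3 to 24.8 in tumor 4. These 3 ratios, all with Nfib, did not overlap between groups. Each gave p = 0.133 in the two-sided exact permutation test, the smallest that 15 arrangements allow (0.267 adjusted over the 6 pairs). Single genes often do not overlap here (37.4% above and 39.8% below normal lung), and no such share was counted for gene pairs. Nfia and Nfic fell by similar amounts, their log2 ratio changing by -0.16 (p = 0.8, exact permutation test), from 0.37 ± 0.19 in normal lung to 0.21 ± 0.59 in tumors. The ratio of Nfia to Nfic counts ran from 0.698 in tumor 6 to 1.90 in tumor 3, a 2.73-fold range that holds both normal values, 1.42 and 1.18. The 2 remaining ratios, of Nfia and of Nfic to Nfix, overlapped between groups as well (p = 0.4 and 0.533, exact permutation test), with tumor 4 the highest library in both.

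**Figure D3:**
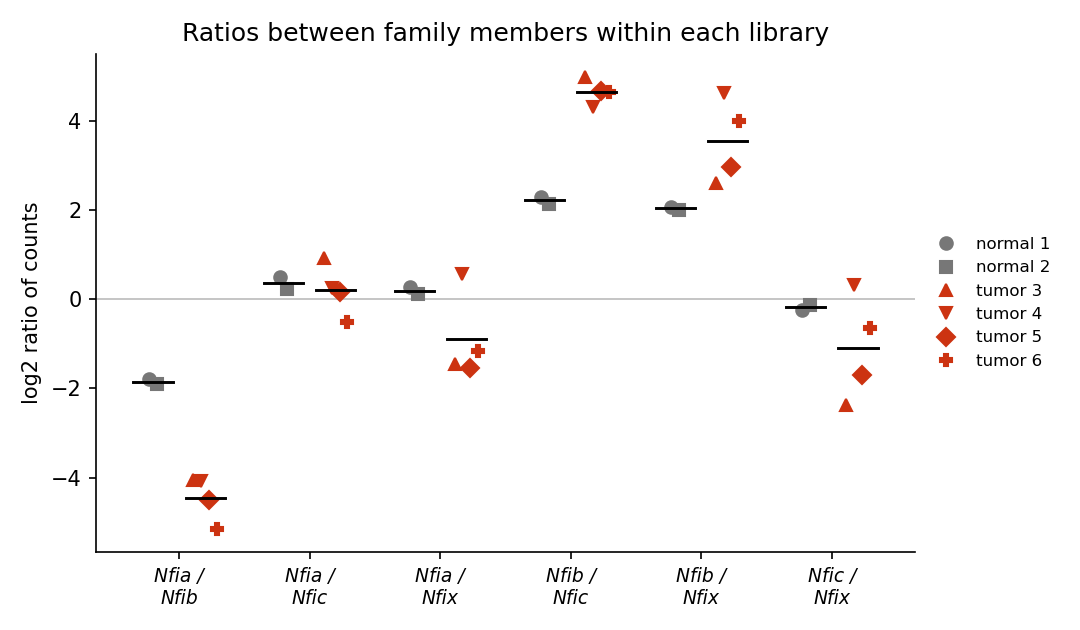
Log2 ratio of counts for the 6 pairs of NFI genes in each library. Gray points are normal 1 and 2, red points tumors 3 to 6, and bars are group means. The 3 pairs with Nfib separate tumors from normal lung, and in the 3 pairs with Nfix the tumors spread widely, with tumor 4 at one end.

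The chromosomal neighbors of the members went in both directions. The 3 nearest protein-coding genes on each side of each member (RefSeq, GRCm38) gave 24 genes, of which 22 were tested. Of these 7 were higher, 11 lower and 4 not called, beside the 31.3% and 32.6% of all genes. Next to Nfib, on one side, Mpdz, a PDZ scaffold protein gene, did not pass (log2 fold change -0.43 ± 0.23, adjusted p = 0.145) and Lurap1l was 3.49-fold lower. On the other side Zdhhc21, a palmitoyltransferase gene, rose 2.09-fold, by 1.07 ± 0.16 on the log2 scale (adjusted p = 0.00135, edgeR), an amount like that of Nfib. Its level was 64.5 and 57.9 CPM in normal lung and 120, 117, 145 and 131 CPM in tumors 3 to 6. Beyond it Cer1, the gene of the secreted BMP and Nodal antagonist Cerberus, had 0 and 13 counts in normal 1 and 2. In tumors 3 to 6 it stood at 17.4, 68.6, 32.6 and 41.1 CPM, a log2 fold change of 9.14 ± 1.30 (adjusted p = 0.00111, edgeR). With so few normal counts the size of that fold is uncertain, the log2 fold change being 8.12 without normal 1 and 14.49 without normal 2. Tumor 4 was the highest of these for Cer1 and the lowest for Nfib. Frem1, a basement membrane matrix gene, was 5.29-fold lower, a call lost without normal 1, normal 2, tumor 3 or tumor 6. Its log2 fold change was -2.40, and -3.04 once tumor 5 was left out. DNA copy number was not measured in these files.

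Around Nfia, Tm2d1 rose 2.51-fold and the other 5 neighbors fell, among them the cell polarity gene Patj (listed as Inadl) at 5.87-fold, from 132 ± 20.0 to 22.4 ± 2.92 CPM. Cyp2j5 was listed at 0 in every tumor and had 39 counts in normal lung. That call did not hold in DESeq2, nor when either normal library was left out. Around Nfic, Celf5, an RNA-binding protein gene of the CELF family, rose 33.2-fold (log2 fold change 5.05, and 5.81 without normal 2) and Dohh, of hypusine synthesis, 2.57-fold. Ncln did not pass (log2 fold change -0.03 ± 0.30, of either sign by scaling), S1pr4, a sphingosine phosphate receptor gene of blood cells, was 30.7-fold lower and Smim24 3.81-fold lower. Smim24 was no longer called when normal 1, normal 2, tumor 5 or tumor 6 was left out, with upper quartile scaling and without the tailless rows. Around Nfix, Trmt1, a tRNA methyltransferase gene, rose 2.90-fold, Lyl1, a transcription factor gene of blood cells, was 8.14-fold lower, and Nacc1 (-0.14 ± 0.22) did not pass. Gadd45gip1 and Dand5 were called 1.57-fold higher and 2.33-fold lower, and both calls were lost without normal 1 or normal 2, that of Dand5 also without tumor 6.

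**Figure D4:**
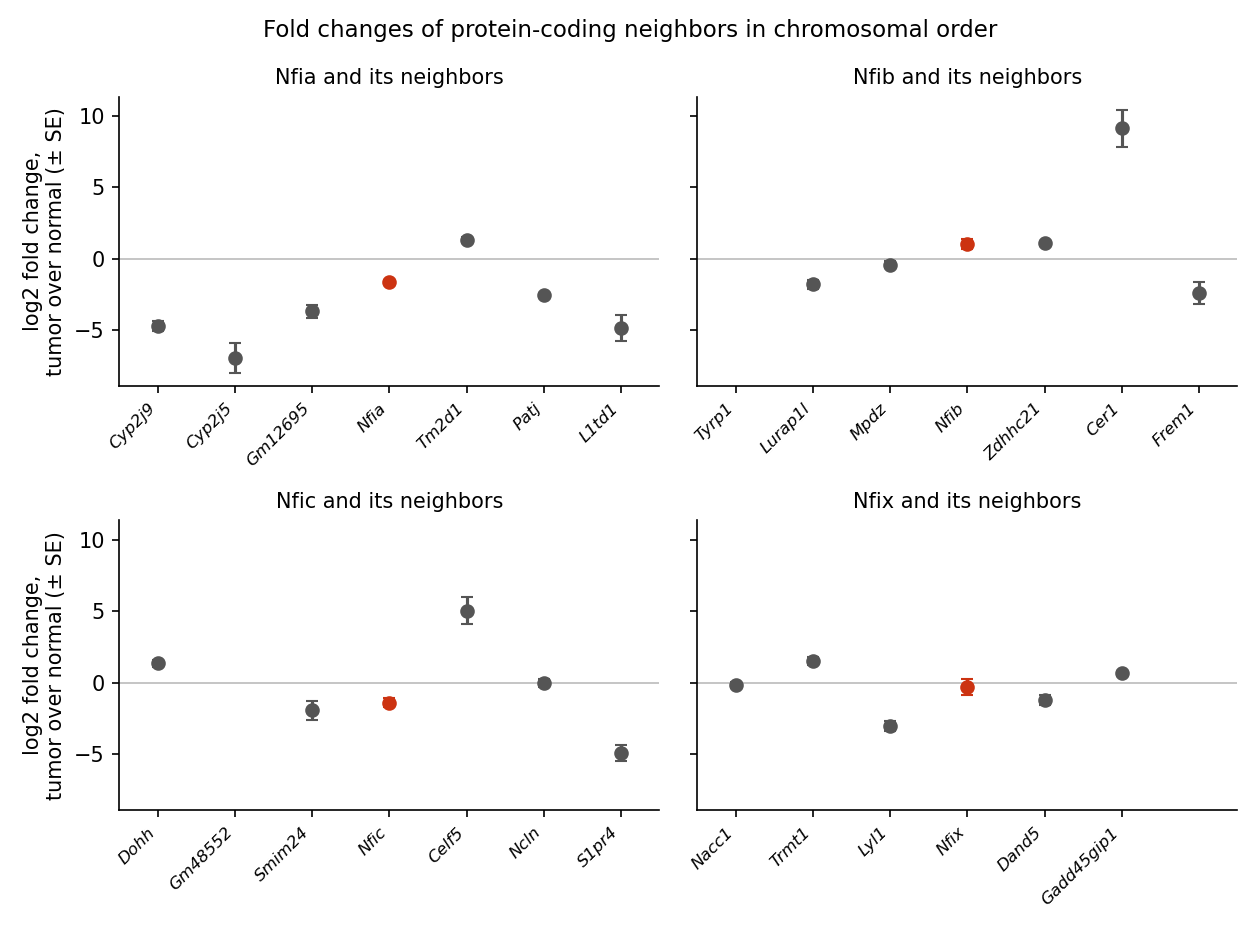
Log2 fold change, tumor over normal, of each NFI gene (red) and the neighbors reported here (gray) in chromosomal order, with SE as error bars and the order as the only meaning of the x axis. Tyrp1 and Gm48552 have no point because they were not tested. Nfib and Zdhhc21 stand at 1.02 and 1.07, between Mpdz at -0.43 and Cer1 at 9.14.

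Factors that work with NFI proteins showed no common direction. Of 14 such genes 2 rose and 6 fell, while 6 missed the threshold, beside 31.3% higher and 32.6% lower over all genes. Their median log2 fold change was -0.10, beside 0.02 over all genes tested. The lung epithelial factors that bind beside NFI were among those not called, with Nkx2-1 at 48.2 ± 7.49 CPM in normal lung and 42.6 ± 16.0 in tumors, Foxa1 at 27.5 ± 1.52 and 49.3 ± 16.9, and Foxa2 at 42.7 ± 0.238 and 62.1 ± 17.7. Foxa1 was close to the threshold, at a log2 fold change of 0.84 ± 0.33 and adjusted p = 0.0586 (edgeR). The number of the 14 called higher was 3 with RLE or upper quartile scaling, with the 1 CPM filter, with DESeq2 and without the tailless rows. Ski, a corepressor gene, fell 5.39-fold and Nr3c1, the glucocorticoid receptor gene, 8.94-fold from 381 ± 8.10 to 42.6 ± 20.6 CPM. The 2 that rose were Smarca4, the ATPase of the BAF remodeling complex, and Tbp, at 1.76-fold each, and neither passed without normal 1 or normal 2. Without normal 1, normal 2 or tumor 6 the number lower was 3, and without tumor 3 the number higher was 5.

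Genes of lung maturation linked to NFI were nearly all lower. Of 15, 12 fell, none rose and 3 missed the threshold (median log2 fold change -4.70), the 3 being Foxa1, Foxa2 and Nkx2-1. Over all genes tested 32.6% were lower. The number higher was 1 with RLE or upper quartile scaling, with the 1 CPM filter, with DESeq2 and without the tailless rows, and 2 without tumor 3, while the number lower stayed at 12 in each of these. Hopx, of alveolar type 1 cells, fell 28.5-fold, Gata6, a lung epithelial factor gene, 22.2-fold and Abca3, the surfactant lipid transporter gene, 14.1-fold. Of the 12 that fell, 10 are also on the lists of alveolar, club or ciliated cell markers. The summed level of the alveolar type 2 list was 239 to 1627 CPM in tumors against 30035 and 27214 in normal 1 and 2. The part of cell numbers in this was not tested.

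Genes of glial and neural development linked to NFI went both ways, with 5 higher, 4 lower and 5 not called of the 14 tested among 16 listed (median -0.73). These counts are near the 31.3% higher and 32.6% lower over all genes and are no result about the list. Hes1, a Notch effector gene, fell 17.2-fold, Zcchc24 16.5-fold and Aldh1l1, an astrocyte folate enzyme gene, 23.0-fold. Ezh2, the Polycomb methyltransferase gene, rose 9.58-fold, from 14.2 ± 1.28 to 136 ± 23.8 CPM. Insc and Cntn2 also rose, by 3.52 ± 1.06 and 2.45 ± 0.77 on the log2 scale, neither past the threshold without normal 1 or normal 2. Cntn2 missed it also without tumor 3 or tumor 5, and Insc with limma voom. Without tumor 4 the log2 fold change of Insc was 2.93. Both genes were low. Insc stood at 0.416 ± 0.129 CPM in normal lung and at 4.66, 9.66, 4.21 and 0.673 CPM in tumors 3 to 6. Cntn2 stood at 0.163 and 0.162 CPM in normal 1 and 2, and at 0.879, 0.255, 1.42 and 1.02 CPM in tumors 3 to 6. The number higher was 1 without normal 1, 2 without normal 2, tumor 3 or tumor 5, and 3 with voom, and with the stricter filter Ezh2 was the 1 member called higher. Gfap, the classical astrocyte target of NFI, stood at 0.253 ± 0.0848 CPM in normal lung and 0.0992 ± 0.0831 in tumors and did not pass. Markers of glia and Schwann cells as a list were 1 higher and 7 not called, with summed levels of 85.8 and 88.9 CPM in normal lung and 74.3 to 118 in tumors.

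Of 11 tested genes, from 14 listed, that link NFI to muscle, teeth and metabolism, 5 fell and 1 rose, while 5 missed the threshold (median -2.68), beside the same shares over all genes. Pparg, the adipocyte regulator gene, fell 8.98-fold, Nfatc4, a calcineurin-regulated factor gene, 9.30-fold and Myh7, a slow muscle and heart myosin gene, 186-fold. Mstn, the gene of the muscle growth inhibitor myostatin, went from 6 counts over the normal libraries to 382 over the tumors (log2 5.41 ± 1.31). Leaving out normal 1 or normal 2 left Mstn short of the threshold, and without tumor 3 its log2 fold change was 4.67. Over the 4 lists, 51 distinct genes were tested, of which 8 rose and 27 fell, with 16 short of the threshold, beside 31.3% higher and 32.6% lower of all genes tested. Without normal 1 the number that rose was 1, without normal 2 it was 2, and without tumor 5 it was 5.

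The genes most like each member were those with the smallest Euclidean distance in centered log2 CPM over the 6 libraries, among 18026 others. For Nfia these were Plekhb2 (distance 0.18), Hipk3 (0.23) and Sntb2 (0.23), for Nfib 4931440J10Rik (0.19), Klhdc10 (0.21) and Plch1 (0.29), for Nfic P3h1 (0.32), Ift172 (0.32) and Pkd1 (0.33), and for Nfix E030019B13Rik (0.40), Pcdhb7 (0.49) and Spata9 (0.50). No member was among the nearest genes named for another. The closest members were Nfia and Nfic at 1.06, with Nfic at place 1703 in the order around Nfia and Nfia at place 1126 around Nfic. The farthest were Nfia and Nfib at 3.13.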

How the data were processed

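RNA of flash-frozen tumor tissue was poly(A)-selected and sequenced, per the labels' protocols, which do not describe the normal lung separately. The deposited values are raw gene counts that the authors made with TPMCalculator, per the labels. The submitters' processing notes list, with no role or order, mm9, R 3.5.1, DESeq2 1.22.2, STAR 2.5.4a, Trimmomatic 0.36 and Trim Galore. Neither annotation nor strand is given in the sources used here.

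The main test was edgeR 4.0.16 (quasi-likelihood, R 4.3.3) with tissue type as the factor, on all genes that passed filterByExpr (at least 10 counts, 15 in total), scaled by TMM, with Benjamini-Hochberg adjustment over 18027 genes. The SE is the log2 fold change divided by the square root of F. Log2 CPM used a prior count of 2, and ratios an added count of 0.5. Nothing in the labels pairs a tumor with a normal sample, and all are listed in batch 1. Exon lengths and sequences came from GENCODE M21, aligned with MAFFT, and 21278 symbols had a length. On simulated counts with 17898 genes kept, 45.5% of 66 genes changed by 2 on the log2 scale were recovered, 85.9% of 64 changed by 4 and 87.7% of 65 changed by 6, with 1 false call among 17703. No change as small as that of Nfib was simulated. The part of genes changed was far smaller there than the 63.9% called in these data, so the simulated rates need not hold for them.

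Members and gene lists were chosen with earlier results of these data known. Named genes were the 4 members, the genes with the smallest p in each list (at most 3 up and 3 down), 3 neighbors per side and the 3 nearest patterns. Gfap, Ckm, Foxa1, Foxa2 and Nkx2-1 were added after their values were seen, as were Des, Acta2, Tagln, Pdgfrb and Cspg4. Some genes that the rule names are counted but not reported here by name. Alternatives were RLE, upper quartile and total-count scaling, no filter, limma voom 3.58.1, DESeq2 1.42.0, a group-wise filter at 1 CPM, removal of 1123 small RNA, Rn45s and histone rows, and leaving out each library. Transcript length in place of exon length was chosen after seeing the data.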

Additional observations from a re-analysis of the deposited data

How the results depend on the processing

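The calls of Nfia and Nfic held in all 14 alternatives, with log2 fold changes of -1.78 to -1.49 and -1.53 to -1.23. Leaving out 1 library at a time gave 0.90 to 1.17 for Nfib, of which 1.10, 0.92 and 0.98 (without normal 1, normal 2 and tumor 5) missed the threshold, so that 0 to 1 members were higher. Where 1 normal library was left, its spread was taken from the tumors. It gave -0.54 to 0.0048 for Nfix, reversed without tumor 4, and -0.41 to 0.077 for the Nfia to Nfic log2 ratio, reversed without tumor 6. Genes higher over the whole table numbered 3373 to 5912 (3373 and 3740 without normal 1 and 2), and listed NFI-linked genes that rose 1 to 8, or 4 of fewer genes tested with the 1 CPM filter. The change in share, in percentage points, was -9.81 for Nfia and -11.1 for Nfic with transcript length, and -8.98 for Nfic with raw counts. Upper quartile scaling moved the median of all genes from 0.02 to 0.14, and Nfib stayed above it at 1.14. Ncln, not called in any setting, was 0.0185 with RLE and with DESeq2, 0.084 with upper quartile, 0.0551 with the 1 CPM filter, 0.0447 without small RNA rows and -0.16 to 0.10 leaving out libraries. The cause of these changes was not tested. No paired analysis was possible because the groups share no replicate numbers. With 2 normal libraries, the spread of normal lung is poorly known.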

Other observations

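Within the 4 tumors alone, the genes closest to Nfix in centered log2 CPM were Fam189a1 (distance 0.09), Neurod1 (0.11) and Slc2a2 (0.12). Neurod1, the neurogenic factor gene, stood at 40.7, 7.95, 41.0 and 25.8 CPM in tumors 3, 4, 5 and 6, and Nfix at 95.4, 20.5, 105 and 65.2 CPM. Both were lowest in tumor 4 and lower in tumor 6 than in tumors 3 and 5. In normal lung they parted, with Neurod1 at 0 and 0.129 CPM and Nfix at 92.0 and 84.9. Slc2a2 was at most 0.209 CPM in any tumor.

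The nearest genes to Nfib within the tumors were Scn8a (0.04), a sodium channel gene, Mir7081 (0.06) and Slc35f1 (0.07). Scn8a stood at 34.6, 30.1, 48.0 and 63.1 CPM in tumors 3 to 6, in the same order as Nfib, and at 0.223 and 1.61 CPM in normal lung. For Nfic they were Mical2 (0.04), Cic (0.08) and Acvr2b (0.08), and for Nfia Lrrc57 (0.04), Prmt10 (0.04) and Tubg2 (0.04). With 4 libraries and 18026 genes to choose from, close patterns are bound to be found, and no test was made.

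Ckm, the muscle creatine kinase gene, was at 146 CPM in tumor 6 and at most 0.477 CPM in tumors 3 to 5, and 2.02 and 9.47 CPM in normal lung. Among other muscle genes on the NFI-linked list, Eno3 was also highest in tumor 6, at 50.7 CPM, but Myh7 was lowest there, at 0.105 CPM, and Mstn was neither. On the smooth muscle and pericyte list, Des and Myh11 were highest in tumor 6. Des stood at 109 CPM there, against 14.4 to 24.9 in tumors 3 to 5 and 77.7 and 97.0 in normal lung. Acta2 and Tagln were lowest in tumor 6, and Cnn1, Pdgfrb, Cspg4 and Notch3 were neither. Tumor 6 is also the library with the highest Nfib. The part of muscle tissue in the Nfib level was not tested.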
